A study of Mus musculus with 4 samples.

Results

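The 9 genes described here encode milk proteins of the mouse. They are Csn2, Csn1s1, Csn1s2a, Csn1s2b and Csn3 (the caseins), Wap (whey acidic protein), Lalba (alpha-lactalbumin), Glycam1 (a mucin-like glycoprotein of milk) and Wfdc18 (a small secreted protein with a WAP domain). They were named as a family, 9 of 55253 genes, and were followed through 2 single-cell libraries of mammary gland cells sorted for CD45, the surface protein of blood-derived cells. Below, the first is the earlier pool and the second the later pool, since each combined several samples. Their raw UMIs (unique molecular identifiers, 1 for each captured RNA molecule) were counted in 3 places. The first was epithelial cells, taken as cells with at least 4 UMIs over Epcam, Krt8, Krt18, Krt14 and Krt5, a gate that uses no milk gene. The second was each immune class, and the third was barcodes of the earlier pool with 10 to 99 UMIs, which are too shallow for cells.

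The study profiled immune cells of the gland over the reproductive cycle, and each library pooled cells that carried antibody tags (hash tags) naming their sample. In the earlier pool the usable tags were named Nulliparous (HT4), Gestation (HT5), Lactation (HT6) and Germ-free (HT2). In the later one they were named Gestation (HT5), Lactation (HT6), Involution (HT8), Regression (HT9), Balb/c (HT10, a mouse strain), GF (HT12, germ-free mice) and Germ-free (HT2). The name of HT2 is in doubt, because the title of the earlier pool lists involution and no germ-free sample, and the title of the later one lists GF a single time. The title of the later pool also lists nulliparous glands, but HT4 was nearly without counts there. The labels give no strain for the stage samples, no ages, no number of animals behind a tag, and no stage for the Balb/c and GF animals. Each name is 1 hash-defined sample in a library, and the samples of a library shared 1 cell suspension during capture.

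Milk protein genes are switched on in the luminal alveolar cells of the mammary gland during gestation and are transcribed at very high rates in lactation. Prolactin acts through its receptor, the kinase JAK2 and the transcription factor STAT5, together with glucocorticoid signalling and factors such as ELF5 and NFIB. Caseins form the micelles that carry calcium and phosphate, kappa-casein (Csn3) holds the micelle stable, and alpha-lactalbumin is the partner of galactosyltransferase in lactose synthesis. Lymphocytes and myeloid cells do not secrete milk, and their UMIs of these genes are taken below as not their own, which was not tested. In droplet assays, RNA that leaks from broken cells floats in the suspension and is captured beside intact cells, and such UMIs are called free RNA below.

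The earlier pool held 56300251 UMIs over 1347735 barcodes, and 21604 barcodes were kept as cells (at least 500 UMIs and 300 genes, at most 10% mitochondrial UMIs) with a median of 1599 UMIs. The later pool held 90642638 UMIs over 21632 barcodes, none with under 500 UMIs, and 21177 cells were kept with a median of 3049 UMIs. A single tag and no sign of a doublet or of an epithelial cell left 15262 cells in the earlier pool and 14559 in the later one for the immune classes. The kept cells of the libraries had 139 barcodes in common. Intervals below are 95% intervals for counting error only (exact Poisson for sums, Clopper-Pearson for shares). Adjusted p-values come from hash-defined samples, so they measure the spread between these samples, which may be technical.

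All 5 caseins lie in 1 cluster on chromosome 5 of GRCm38.p6, from Csn1s1 (chr5:87666208-87682578, plus strand) through Csn2 (chr5:87692619-87699429, minus strand), Csn1s2a (chr5:87774450-87788798) and Csn1s2b (chr5:87808121-87824421) to Csn3 (chr5:87925579-87932550). Wap (chr11:6635483-6638654) and Wfdc18 (chr11:83709004-83711360) share a chromosome without being neighbours, as do Lalba (chr15:98480400-98482934) and Glycam1 (chr15:103562759-103565081). The core of the element bound by STAT5, TTCNNNGAA, which reads the same on both strands, was searched in the RefSeq promoter windows of 7 of the 9 genes (250 bases before to 50 after the start). It was present in 4 of these 7 windows (Csn2, Csn1s1, Glycam1 and Csn1s2a) and in 8.30% of all 32851 windows of 300 bases. The match began 93 bases before the start in Csn2, 100 in Csn1s1 and 145 in Glycam1, and it lay 21 bases after the start in Csn1s2a, while the letters did not occur in the windows of Wap, Lalba and Wfdc18. The 250 bases before the start are shown for the 3 genes with an upstream match, and for Wap as a gene without one. They are written 5′ to 3′ on the gene's strand with the match in capitals (Csn2, minus strand, chr5:87699426-87699675. Csn1s1, plus strand, chr5:87665958-87666207. Glycam1, minus strand, chr15:103565082-103565331. Wap, minus strand, chr11:6638650-6638899). A match is a description of letters and not evidence of binding in these cells.

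Csn2: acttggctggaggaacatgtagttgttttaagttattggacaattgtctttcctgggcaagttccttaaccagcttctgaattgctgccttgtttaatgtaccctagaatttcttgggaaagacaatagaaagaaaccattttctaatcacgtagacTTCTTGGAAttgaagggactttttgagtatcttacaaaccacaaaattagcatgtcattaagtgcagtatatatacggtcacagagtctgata
Csn1s1: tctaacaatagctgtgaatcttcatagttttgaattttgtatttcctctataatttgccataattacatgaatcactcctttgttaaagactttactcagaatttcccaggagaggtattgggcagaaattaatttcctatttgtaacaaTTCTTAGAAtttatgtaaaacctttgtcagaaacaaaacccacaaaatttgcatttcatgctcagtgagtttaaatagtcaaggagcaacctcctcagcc
Glycam1: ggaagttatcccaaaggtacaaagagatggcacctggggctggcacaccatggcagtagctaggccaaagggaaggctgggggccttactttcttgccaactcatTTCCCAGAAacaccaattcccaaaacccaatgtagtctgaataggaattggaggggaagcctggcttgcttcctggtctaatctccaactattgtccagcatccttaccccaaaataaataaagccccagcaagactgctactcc
Wap: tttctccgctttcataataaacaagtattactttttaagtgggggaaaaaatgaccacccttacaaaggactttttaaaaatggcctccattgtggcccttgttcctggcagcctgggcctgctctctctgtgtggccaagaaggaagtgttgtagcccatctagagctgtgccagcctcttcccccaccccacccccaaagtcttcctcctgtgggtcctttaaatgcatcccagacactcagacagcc

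The barcodes of the earlier pool too shallow for cells were rich in milk RNA. The 55011 barcodes with 10 to 99 UMIs held 2912978 UMIs, of which 69928 (2.40%, interval 2.38 to 2.42) came from the 9 genes, and 63.9% of these barcodes had at least 1 milk UMI. Csn2 gave 77.7 of every 10000 UMIs, followed by Csn1s2a with 51.7, Wap with 25.8, Csn1s1 with 25.5, Csn1s2b with 19.4, Glycam1 with 17.1, Csn3 with 12.4, Wfdc18 with 8.96 and Lalba with 1.54. Levels of different genes can be set side by side here because the assay counts transcripts by their 3′ ends, so length does not enter. The milk RNA was thinly spread, with a median of 1 and a maximum of 36 milk UMIs in a barcode. Its share was nearly the same whichever tag dominated the barcode. In barcodes without a cell the tag can be free as well, so these shares do not tell which sample the RNA came from. Per 10000 UMIs it was 232 for Germ-free, 242 for Nulliparous, 236 for Gestation and 223 for Lactation, and 240 in the 40958 barcodes with no dominant tag. In the barcodes with 1 to 9 UMIs the share was lower, 0.469%.

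Among cells, the mean number of milk UMIs rose with depth and their share of UMIs fell. The cell bins took in cells without a single tag, so they are not the cells analysed by sample. Barcodes with 50 to 99 UMIs held 1.61 milk UMIs on average and those with 200 to under 500 held 5.54. Cells of the earlier pool with 500 to under 1000 UMIs held 1.74. Among the cells of the earlier pool the mean was 1.74 in that bin, 2.04, 3.28 and 2.73 in the next bins and 4.61 at 8000 UMIs or more, while the milk share fell from 0.216% to 0.0443% and the median depth went from 815 to 9401 UMIs. In the later pool the mean ran from 2.65 to 6.47 milk UMIs per cell over the same bins and the share fell from 0.355% to 0.0526%. Since the number per cell moved less than the share, free milk RNA is given below as UMIs per 100 cells.

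**Figure D1:**
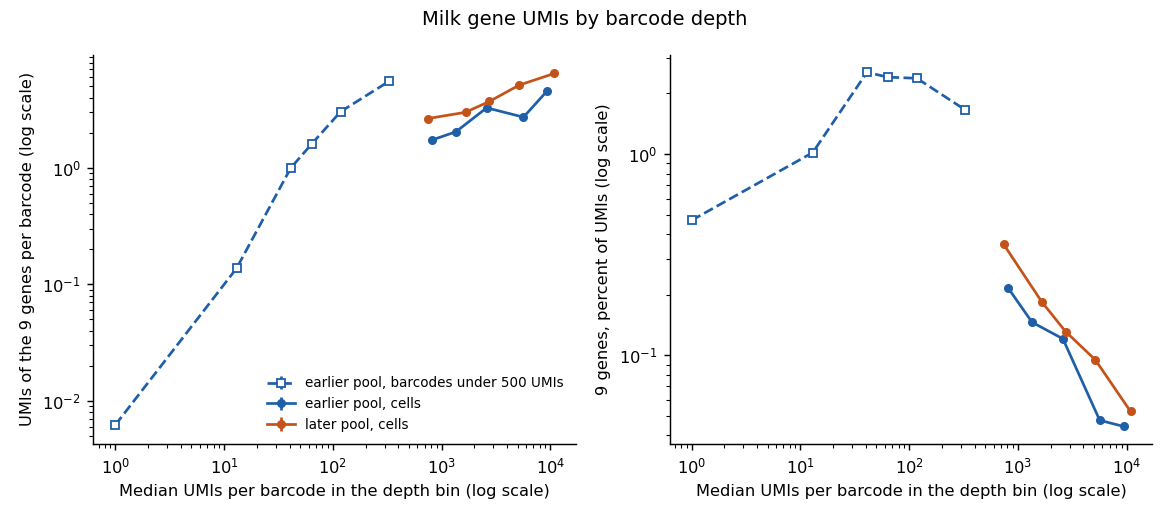
Mean UMIs of the 9 genes per barcode (left) and their percent of all UMIs (right) against the median UMIs of the depth bin, all axes logarithmic. Open squares are barcodes of the earlier pool under 500 UMIs. Filled circles are cells of the earlier pool and the later one, including cells without a single tag. The 95% Poisson intervals on the left are mostly smaller than the symbols. The percent drops from 2.41% in barcodes with 50 to 99 UMIs to 0.216% in cells of the earlier pool with 500 to under 1000 UMIs.

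T-like cells, taken here to contain no milk transcripts of their own, carried them in every sample, and per cell the samples of a pool lay close together. In the earlier pool the 9 genes gave 159 UMIs per 100 T-like cells for Germ-free, 173 for Nulliparous, 178 for Gestation and 168 for Lactation (169 ± 8.03, SD, n = 4 samples). The nulliparous sample was therefore at the level of the gestation and lactation samples. In the later one the values were 276 for Germ-free, 340 for Gestation, 344 for Lactation, 298 for Involution, 294 for Regression, 290 for Balb/c and 348 for GF (313 ± 30.002, SD, n = 7 samples). The highest sample exceeded the lowest by a factor of 1.12 in the earlier pool and 1.26 in the later pool, and the counting intervals were apart in 1 of 6 pairs of earlier samples and in 12 of 21 pairs of later samples. Per 10000 UMIs the samples lay farther apart, from 9.01 in Lactation to 14.7 in Gestation in the earlier pool and from 9.17 in Involution to 13.4 in Lactation in the later pool. With each cell thinned to 1000 UMIs these ranges were 9.62 to 14.5 (79 to 492 shallower cells left out per sample) and 9.56 to 14.1 (4 to 16 left out). At least 1 milk UMI was found in 75.4% of T-like cells in the earlier pool (median 1298 UMIs per cell) and in 91.8% in the later pool (median 2709). The corresponding shares in B-like cells, taken to lack the transcripts as well, were 76.4% at a median of 853 UMIs and 89.9% at 1982. These shares are not read as expression.

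The genes differed in level and in how far the T-like samples spread. Csn2 was the most frequent in both libraries, with 45.1 UMIs per 100 cells in Germ-free, 55.5 in Nulliparous, 53.9 in Gestation and 51.9 in Lactation in the earlier pool. In the later pool it ran from 133 in Germ-free over a median of 150.0 to 171 in Lactation. Wap had 16.8, 18.9, 20.6 and 18.3 UMIs per 100 cells in the same samples of the earlier pool, and 20.7 (Germ-free) to 35.6 (Lactation) in the later pool, with 31.5 in Gestation and 25.1 in Regression. The widest spread in the later pool was that of Csn3, from 6.90 in Germ-free to 15.8 in GF, a factor of 2.30. Lalba was the rarest, between 0.915 and 1.75 per 100 cells in the earlier pool and between 2.23 and 3.47 in the later pool. In the earlier pool the order was Csn2 (51.6 ± 4.59, SD, n = 4), Csn1s2a (38.1 ± 2.49), Wap (18.7 ± 1.60), Csn1s1 (17.3 ± 1.54), Csn1s2b (13.3 ± 0.876), Glycam1 (13.2 ± 0.936), Csn3 (8.66 ± 0.578), Wfdc18 (7.44 ± 0.811) and Lalba (1.21 ± 0.373). The neighbours Wap and Csn1s1, and Csn1s2b and Glycam1, did not differ by more than their SDs. In the later one the order was Csn2 (154 ± 13.5, SD, n = 7), Csn1s2a (46.6 ± 3.74), Glycam1 (35.3 ± 4.97), Wap (27.0 ± 5.18), Csn1s1 (22.2 ± 3.26), Csn3 (12.8 ± 2.96), Wfdc18 (8.32 ± 2.15), Csn1s2b (3.7996 ± 0.600) and Lalba (3.03 ± 0.457). Among these, Wap and Csn1s1 differed by less than the SD of Wap and more than that of Csn1s1, and Csn1s2b stood eighth in place of the fifth.

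The milk UMIs of the epithelial cells of the same tags were far more unequal. Gated epithelial cells tagged Germ-free in the earlier pool held 224 milk UMIs (1 cell), those tagged Lactation 270 (3 cells), Nulliparous 4661 (10 cells) and Gestation 55006 (11 cells). In the later pool the sums were 234 for Involution (4 cells), 2558 for Gestation (6 cells), 12551 for Balb/c (3 cells), 34799 for Lactation (4 cells), 49471 for Germ-free (6 cells), 107274 for Regression (11 cells) and 146622 for GF (8 cells). The epithelial sums thus spread over orders of magnitude between tags whose T-like cells stayed within a factor of 1.26 per cell in each pool.

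Lactation was compared with Gestation, the pair of stages present in both libraries, on UMIs summed per sample with the library as a block. These fits are scaled per UMI and not per cell. In T-like cells none of the 9 genes passed edgeR's quasi-likelihood test at an adjusted p of 0.05, and 0.0989% of all 9104 genes tested did (9 genes, all lower in Lactation). The unadjusted p was under 0.05 for 519 genes, among them 1 milk gene, and DESeq2 called 8 genes and no milk gene. By edgeR the log2 difference was -0.20 for Csn2 (SE 0.26, adjusted p = 0.972) and -0.24 for Wap (SE 0.27, adjusted p = 0.970). Wfdc18 had the lowest p of the 9, at -0.79 (SE 0.26, adjusted p = 0.475, edgeR). These tests rest on 4 samples and 1 residual degree of freedom, and a missed threshold does not show that the levels were equal. Lactation in the later pool depends on the tag assignment, with 331 T-like cells by HTODemux and 85 by the tag with the most counts, and no milk gene passed with either. The sums per cell moved by a log2 ratio of -0.09 in the earlier pool and 0.02 in the later pool. Per 100 T-like cells of Gestation and Lactation, Csn2 gave 53.9 and 51.9 in the earlier pool and 157 and 171 in the later pool. Wap gave 20.6 and 18.3, and 31.5 and 35.6. The median UMIs of these cells were 1162 in Gestation and 1771 in Lactation in the earlier pool, and 2802 and 2445 in the later pool. Of the list of free RNA from other cells, 2 of 10 genes tested were lower in Lactation, the haemoglobin genes Hba-a1 (-4.24, adjusted p = 0.00167, edgeR) and Hbb-bs (-3.81, adjusted p = 0.00167), which red blood cells transcribe. None of 15 other milk and secretory genes, 14 prolactin signalling and alveolar regulators and 2 luminal keratin and adhesion genes passed, and no basal gene was abundant enough to test.

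The other immune classes gave the same count. No milk gene passed in NK-like cells (0.0137% of 7284 genes called), B-like cells (0.0% of 4770, with 207 genes at an unadjusted p under 0.05 and none called by DESeq2), macrophage-like cells (0.0709% of 7052), monocyte-like cells (0.0958% of 3131) or dendritic cells (0.326% of 5212). Lalba was too rare to test in these classes, and Csn3 in monocyte-like cells. The lowest p of a milk gene in edgeR's fits was that of Glycam1 in NK-like cells, at 0.90 (SE 0.23, adjusted p = 0.364). In dendritic cells edgeR gave Csn2 a log2 difference of -0.63 (SE 0.23, adjusted p = 0.562). The single gene called in NK-like cells was Spp1 (osteopontin, which is also secreted into milk), at 1.74 (adjusted p = 0.00117, edgeR). In macrophage-like cells S100a8 and S100a9, abundant in neutrophils, were higher in Lactation by 6.33 and 5.71 (adjusted p = 1.03e-06 for both, edgeR). With no library block no gene passed in any of the 6 classes, and with cells that had a UMI of the gate genes left out none passed in macrophage-like cells. NK-like cells are not the same clusters in both pools, since a cluster of 2204 cells led by Cd7, Gzmc and Itgae was named NK-like in the later pool and a similar cluster of 1830 cells in the earlier pool stayed unnamed. Per cell, the summed milk UMIs of Lactation over Gestation took opposite signs in the libraries in B-like, macrophage-like and dendritic cells.

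The sample values that stood out included cells with many milk UMIs. Values without cells over 10 milk UMIs are given beside them (chosen after seeing the data), and leaving out cells by the measured value lowers the means and draws them together by construction. In NK-like cells of the later pool, Lactation had 658 UMIs per 100 cells beside 330.0 to 389 in the other samples, and 347 without the 17 of 188 cells that held over 10 milk UMIs. B-like cells tagged Lactation in the later pool had 684 per 100 cells over 37 cells, and 271 without 2 such cells. ILC2-like cells tagged Gestation in the earlier pool had 606, and 191 without 2 of 47 cells. Dendritic cells tagged Germ-free in the earlier pool had 446, and 167 without 4 of 297 cells, 1 of which held 570 milk UMIs. Without such cells the 4 NK-like samples of the earlier pool held 154 to 166 per 100 cells and the 4 T-like samples 156 to 163.

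Macrophage-like cells carried more milk RNA per cell than T-like cells of the same sample in 11 of 11 samples, also when cells with over 10 milk UMIs were left out of both classes. The narrowest such gap was within counting error, 283 against 278 UMIs per 100 cells in Regression. In the earlier pool they held 232 milk UMIs per 100 cells for Germ-free, 311 for Nulliparous, 603 for Gestation and 452 for Lactation. In the later one they held 368 for Germ-free, 690.0 for Gestation, 824 for Lactation, 396 for Involution, 515 for Regression, 525 for Balb/c and 769 for GF. The ratio to T-like cells had a median of 1.81 and ran from 1.33 to 3.39. Unlike the T-like samples, the macrophage-like samples of a library differed by factors of 2.60 and 2.24. Without the cells over 10 milk UMIs these factors were 1.63 and 1.64, with Lactation highest in both libraries (332 and 464 per 100 cells). Cells over 10 milk UMIs made up 1.27% (Germ-free) to 11.0% (Gestation) of the macrophage-like cells in the earlier pool and 2.70% (Involution) to 32.7% (Lactation, 16 of 49 cells) in the later pool.

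**Figure D2:**
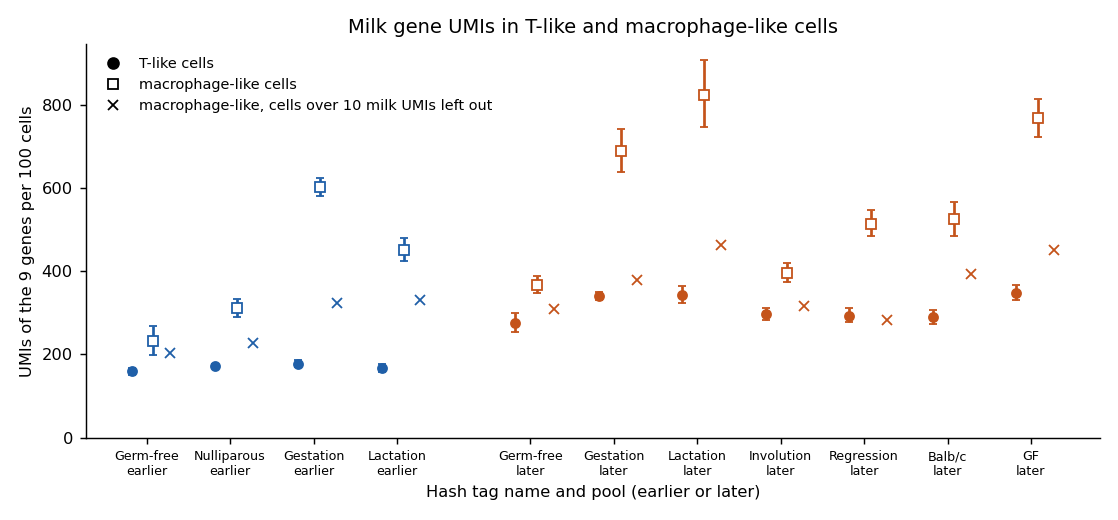
UMIs of the 9 genes per 100 cells in each hash-defined sample, for T-like cells (circles) and macrophage-like cells (open squares), with 95% Poisson intervals, and for macrophage-like cells after cells with over 10 milk UMIs were left out (crosses, no interval drawn). Blue is the earlier pool and orange the later one. The T-like samples lie between 159 and 178 in the earlier pool and between 276 and 348 in the later one, and every macrophage-like square lies above its T-like circle.

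Tested per cell with the sample as a block, all 9 genes were higher in macrophage-like than in T-like cells, but 64.7% of all 10446 genes tested were higher as well and the median log2 difference of all genes was 0.72. This comparison was chosen after seeing the data. Its 11 samples came from 2 pooled suspensions, so they are not 11 independent measures of free RNA. The log2 differences ran from 0.57 for Csn2 (SE 0.11, adjusted p = 7.29e-05, edgeR's quasi-likelihood test) to 1.95 for Wfdc18 (SE 0.21, adjusted p = 6.71e-09). Between them lay Csn1s2a (0.93), Csn3 (1.03), Glycam1 (1.07), Csn1s1 (1.12), Csn1s2b (1.20), Lalba (1.24) and Wap (1.41). Csn2 was thus under the median of all genes, and without the sample block it missed the threshold (0.55, adjusted p = 0.144, edgeR). Per UMI, 3 of the 9 genes passed beside 33.4% of all genes. They were Wfdc18 (1.21, adjusted p = 2.39e-05, edgeR), Wap (0.63, adjusted p = 0.0179) and Csn1s1 (0.35, adjusted p = 0.0317), while Csn2 took the opposite sign (-0.23, adjusted p = 0.0964). Without the cells over 10 milk UMIs the differences per cell were between 0.24 (Csn2, adjusted p = 0.0457, edgeR) and 1.45 (Wfdc18, adjusted p = 7.89e-07), beside 62.0% of all genes.

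Wfdc18 stood highest among the 9 genes in that comparison, at a mean of 33.5 UMIs per 100 macrophage-like cells and 8.001 per 100 T-like cells over the 11 samples. Its relative Wfdc17, a gene of the same family, was abundant in macrophage-like cells, with 60.8 UMIs per 100 cells in the earlier pool and 327 in the later one beside 0.477 and 2.23 per 100 T-like cells. How reads shared by close copies were assigned is not stated in the labels or headers, so the Wfdc18 value in macrophage-like cells is uncertain. In the earlier pool neutrophil-like cells held 397 Wfdc17 and 11.6 Wfdc18 UMIs per 100 cells. Dendritic cells held 103 and 15.3 there, beside 60.8 and 31.5 in macrophage-like cells. In the later pool both genes were highest in macrophage-like cells (327 and 27.8), with 219 and 18.2 in dendritic cells. Sharing of reads was not tested. Of the lists, 12 of 17 other milk and secretory genes tested were higher in macrophage-like cells, beside the 64.7% of all genes. Cd36, Plin2 and Lpl had the lowest p of these, and they handle fatty acids and lipid droplets and are also known from macrophages. Of the regulators 6 of 16 were higher and 7 lower, and of the luminal genes 2 of 3 were higher (Krt18, Epcam) and 1 lower (Cdh1). Of all 10446 genes tested 1112 were lower. Of the basal genes 2 of 2 were higher (Mylk, Acta2) and of the free RNA of other cells 13 of 17. With every cell that had a UMI of the 5 gate genes left out, the differences per cell were 0.49 for Csn2 to 1.79 for Wfdc18.

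The make-up of the milk UMIs, meaning each gene's percent of the sum over the 9 genes, was near the same in T-like cells and in shallow barcodes and differed from that of epithelial cells. In the earlier pool Csn2 made up 32.4% of milk UMIs in shallow barcodes, 30.9% in T-like cells and 29.7% in B-like cells, but 14.8% in gated epithelial cells. Wap made up 10.8%, 11.0% and 11.5% in the same order, and 25.3% in epithelial cells. Csn1s2a, at 21.5%, 22.3%, 20.7% and 21.5%, did not separate them. Macrophage-like cells lay between, with 21.2% Csn2 and 20.3% Wap. In the later pool Csn2 took 48.2% in T-like cells, 39.6% in macrophage-like cells and 19.7% in epithelial cells, and Wap 8.85%, 10.9% and 19.6%. Glycam1 took 11.7% in T-like cells and 19.1% in epithelial cells of the later pool. In these sums the share of Csn2 was higher in T-like than in gated epithelial cells in both pools, and that of Wap lower. The epithelial make-up comes from few cells, since the highest cell held 28.9% of their milk UMIs in the earlier pool and 9.53% in the later pool. Over the single gated cells with at least 100 milk UMIs, the median share of Csn2 was 14.1% (19 cells) and 19.4% (55 cells), under the T-like values. That of Wap was 9.89% and 13.8%, which is under the 11.0% of T-like cells in the earlier pool, so for Wap the direction in the earlier pool turns with the measure.

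**Figure D3:**
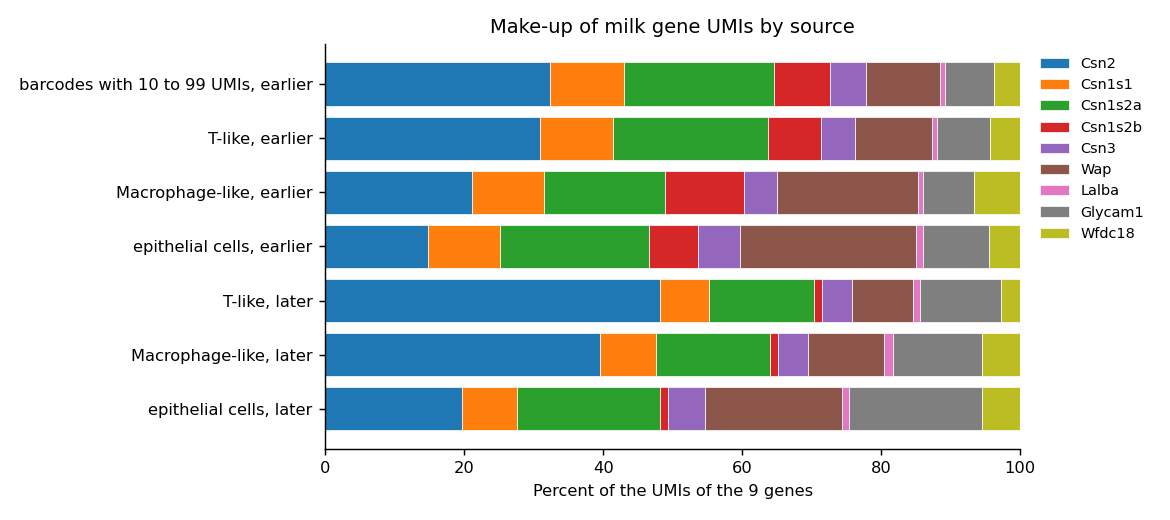
Stacked bars give the percent of the summed UMIs of the 9 genes that each gene contributed in barcodes of the earlier pool with 10 to 99 UMIs and in T-like, macrophage-like and gated epithelial cells of each library. Csn2 (blue) is wide in the shallow barcodes (32.4%) and in T-like cells (30.9% in the earlier pool, 48.2% in the later pool). It is narrower in epithelial cells (14.8% and 19.7%), and Csn1s2b (red) is wide in the earlier pool and narrow in the later one.

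Csn1s2b differed between the libraries. It made up 7.28% to 8.58% of milk UMIs in the 4 T-like samples of the earlier pool. In the 7 of the later pool it made up 0.975% to 1.44%. The same held for the names present in both libraries, at 13.8 Csn1s2b UMIs per 100 T-like cells in earlier Gestation and 3.81 in later Gestation, and at 14.4 in earlier Lactation and 3.63 in later Lactation. Csn2 moved the other way, from 28.3% to 32.1% of milk UMIs in the earlier pool up to 46.1% to 51.8% in the later pool. The ratio of Csn2 to Csn1s2b in T-like cells was 4.03 in the earlier pool and 40.3 in the later pool. Summed over gated epithelial cells the ratio was 2.07 in the earlier pool and 18.3 in the later pool. Cell by cell this order was not seen, since the median share of Csn1s2b in gated cells with at least 100 milk UMIs was 0.211% in the earlier pool and 0.385% in the later pool. In the epithelial cells with 10000 milk UMIs or more, Csn1s2b was 7.34% of milk UMIs in the earlier pool (4 cells) and 1.10% in the later pool (15 cells). The share of Csn1s2a was lower in the later pool (14.3% to 16.3% against 21.6% to 23.5%) and that of Glycam1 higher (9.38% to 12.5% against 7.14% to 8.66%). Year, animals and library preparation cannot be told apart in these differences. How many of all genes differ as much between the pools was not counted. The percents are parts of 1 sum, so a higher share of Csn2 lowers the others.

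If a class holds 1 kind of free RNA, each gene's share of the UMIs in its cells should be the same percent of that gene's share in the shallow barcodes. In T-like cells of the earlier pool that percent was between 4.72 (Csn1s2b) and 5.83 (Wfdc18) over the 9 genes, a ratio of 1.23, with a median of 5.11. NK-like cells had 5.54 to 7.43. B-like cells, which were smaller, had 5.79 to 10.1, and plasma-like cells, at a median of 7436 UMIs, 0.983 to 2.36. Macrophage-like cells were the most uneven of the large classes, from 5.71 for Csn2 (interval 5.37 to 6.07) over 12.4 for Csn1s2b to 15.7 for Wfdc18 (14.1 to 17.5) and 16.5 for Wap (15.5 to 17.5). ILC2-like cells, with 186 cells and 2 cells over 10 milk UMIs, had 5.18 (Lalba) to 14.7 (Wap). By sample, the median over the 9 genes in T-like cells was 3.81 in Lactation, 4.91 in Nulliparous, 5.69 in Germ-free and 5.94 in Gestation, and the Lactation cells had the most UMIs (median 1771 against 1162 to 1331).

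**Figure D4:**
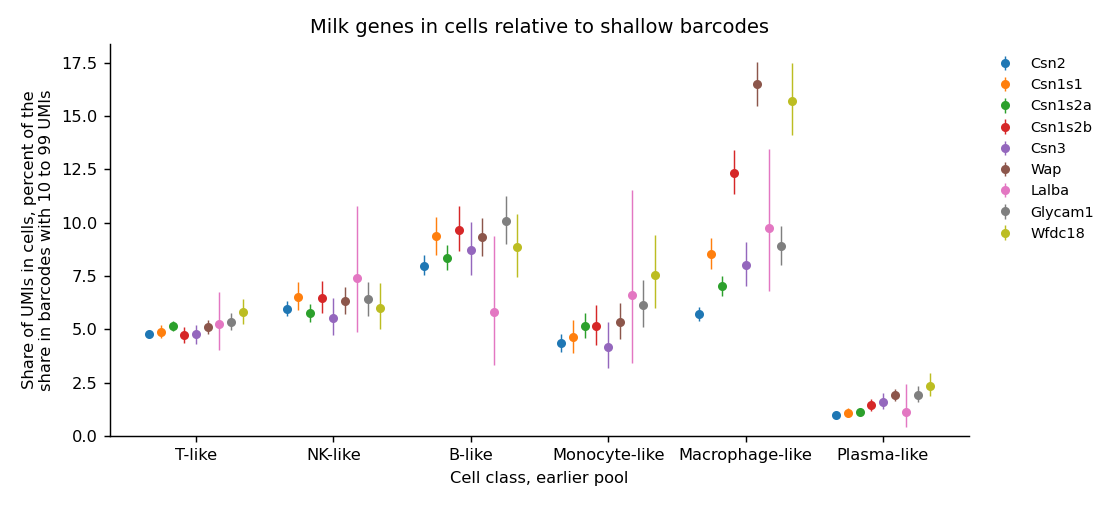
For 6 classes of the earlier pool, each gene's share of the UMIs in cells as a percent of its share in barcodes with 10 to 99 UMIs (1 point per gene, bars are 95% Poisson intervals on the cells' counts). T-like points lie between 4.72 and 5.83, and among macrophage-like points Wap (16.5), Wfdc18 (15.7) and Csn1s2b (12.4) lie above Csn2 (5.71).

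Epithelial cells should have been removed by the CD45 sort, yet 55 kept cells in the earlier pool and 105 in the later one passed the gate. They were 0.0341% to 0.238% of single-tag cells by sample in the earlier pool and 0.149% to 0.503% in the later pool. They held 59.0% of the milk UMIs of all kept cells in the earlier pool (109903 of 186303) and 81.6% in the later pool (592220 of 725400). Of the gated cells, 34 and 81 lay in clusters named epithelial-like from keratin and adhesion markers, with medians of 140.5 and 273 milk UMIs. The other 21 and 24 lay in immune or unnamed clusters, had medians of 3 and 5 milk UMIs and at most 27 and 211, and 15 and 21 of them had a UMI of Ptprc, the gene of CD45. A Ptprc UMI was also found in 12 of the 34 and 34 of the 81 gated cells in epithelial-like clusters. In 30 and 63 gated cells no single tag could be assigned. Conversely, 3 cells in the earlier pool and 12 in the later one with 1000 milk UMIs or more stayed outside the gate, all of them in epithelial-like clusters.

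Milk output was concentrated in a handful of epithelial cells. The 9 gated cells of the earlier pool and 22 of the later one with at least 1000 milk UMIs held 96.1% and 97.8% of the milk UMIs of all gated cells. The highest cell of the earlier pool was tagged Gestation and had 31742 milk UMIs of 44613 in all, and the highest of the later one was tagged Regression and had 56430 of 92255. In the latter, Glycam1 gave 14183 UMIs, Csn1s2a 11499, Wap 11006, Csn2 9717, Csn1s1 4352, Csn3 2916, Wfdc18 1781, Csn1s2b 600 and Lalba 376. Across gated cells the median milk percent of UMIs was 0.785% in the earlier pool and 1.43% in the later pool, and the highest were 71.1% and 66.7%. Samples differed mostly in whether such a cell was present. Gestation in the earlier pool had a median of 78 milk UMIs per gated cell and a highest of 31742, while Gestation in the later pool had a median of 180.5 and a highest of 1572. Lactation reached 263 in the earlier pool and 34669 in the later pool, and in the latter 1 of 4 cells held 99.6% of the milk UMIs.

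**Figure D5:**
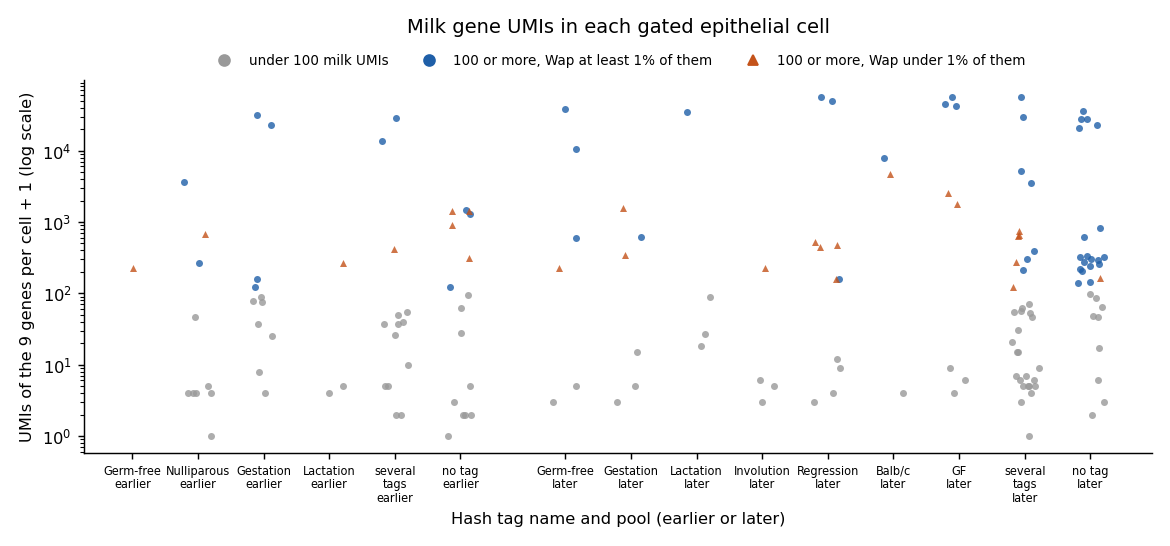
Each point is 1 gated epithelial cell, placed by its hash tag name and pool (cells with several tags or no tag in columns of their own) and by its UMIs of the 9 genes plus 1 on a log axis. Grey cells have under 100 milk UMIs, blue circles have at least 100 with Wap at 1% or more of them, and orange triangles have at least 100 with Wap under 1%. No triangle lies at 10000 milk UMIs or more, where 4 cells of the earlier pool and 15 of the later one stand.

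Epithelial cells with few and with many milk UMIs differed in which milk genes they contained. Wap was under 1% of milk UMIs in 6 of 10 cells with 100 to under 1000 milk UMIs in the earlier pool and in 13 of 33 in the later one. It was under 1% in 2 of 5 and 4 of 7 cells with 1000 to under 10000, and in 0 of 4 and 0 of 15 cells with 10000 or more. Pooled, Wap made up 3.26%, 23.4% and 26.4% of milk UMIs from the lowest to the highest group in the earlier pool, and 7.92%, 9.78% and 20.4% in the later pool. Wfdc18 made up 22.2%, 21.3% and 2.21% from the lowest to the highest group in the earlier pool and 16.8%, 23.9% and 4.38% in the later pool, so it was low in the highest group alone. In 1 Gestation cell of the later pool, 1569 of 1572 milk UMIs were Wfdc18. Csn1s2b was under 1% in 7 of 10, 3 of 5 and 0 of 4 cells of the 3 groups in the earlier pool, and in 25 of 33, 6 of 7 and 9 of 15 in the later pool. Among the 19 cells of the earlier pool with at least 100 milk UMIs, the leading gene was Csn1s2a in 6, Wap in 4, Wfdc18 in 4, Csn1s2b in 3 and Csn2 in 2. Among the 55 such cells of the later pool it was Csn2 in 14, Csn1s2a in 13, Wap in 8, Wfdc18 in 8, Glycam1 in 5, Csn3 in 4 and Csn1s1 in 3. Csn2 was the leading gene of free RNA in both libraries. No gene led a majority of these epithelial cells, and Csn2 led the most of them in the later pool but not in the earlier one. Groups of cells were formed here by their milk UMIs, which the percents share, so no test was made.

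Set against T-like cells of the same sample, all 9 milk genes were higher in gated epithelial cells, beside 14.2% of all 8139 genes tested. The comparison used the 3 samples with at least 10 gated cells (earlier Nulliparous with 10, earlier Gestation with 11 and later Regression with 11) and the sample as a block. Not all of these cells lay in epithelial-like clusters. Of the Nulliparous cells 6 of 10 lay in dendritic or plasma-like clusters and held 0 to 4 milk UMIs, and 1 of 11 in Gestation and 1 of 11 in Regression were plasma-like. Without Nulliparous all 9 genes passed as well. Wap had the largest log2 fold change, 9.22 (SE 0.70, adjusted p = 1.29e-22, edgeR's quasi-likelihood test), and Csn2 the smallest, 6.45 (SE 0.67, adjusted p = 5.59e-15). The others were Csn1s2b 7.63, Csn1s2a 7.73, Csn1s1 7.81, Glycam1 8.05, Csn3 8.10, Wfdc18 8.11 and Lalba 8.51. The median over all genes was -0.22.

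Other genes of milk secretion followed. All 29 tested genes of the list of other milk and secretory genes were higher in epithelial cells, among them Ltf (lactoferrin, 9.75), Lcn2 (lipocalin 2, 9.02), Folr1 (folate receptor, 8.18), Btn1a1 (butyrophilin of the milk fat globule, 8.09) and Mfge8 (6.81), with adjusted p-values between 7.27e-27 and 3.75e-23 by edgeR. Of 17 regulators of prolactin signalling and alveolar fate, 7 were higher and 2 lower, beside 1152 higher and 1118 lower of all 8139 genes tested. Nfib (7.55), Prlr (the prolactin receptor, 7.19), Ehf (6.38) and Elf5 (6.24) were among the higher ones, and Socs3, an inhibitor of cytokine signalling, was higher by 2.23. Jak2 (-1.44) and Socs1 (-3.99) were lower in epithelial cells. Of luminal keratin and adhesion genes 6 of 7 and of basal genes 9 of 9 were higher, but these lists contain the genes of the gate. The basal genes Acta2 (9.18) and Myh11 (9.35) are known from the contractile myoepithelium. Acta2 gave 106 of every 10000 non-milk UMIs in gated cells with 10 to under 1000 milk UMIs in the earlier pool and 35.7 in the later pool, beside 1.27 and 2.40 in cells with at least 1000. Of the free RNA of other cells, 6 of 7 genes were higher, with Sparc (7.56) and Dcn (6.23) of stromal cells and Jchain (6.01) and Igha (5.38) of plasma cells. The gated cells tested included 3, 1 and 1 cells of plasma-like clusters, so for these genes the values hold content of plasma-like cells. In cells with at least 1000 milk UMIs, Trf (transferrin) gave 343 and Spp1 97.2 of every 10000 non-milk UMIs in the earlier pool, and 238 and 191 in the later one, while Elf5 gave 4.35 and 7.70.

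Between Lactation and Gestation the epithelial cells were too few for the planned test (11 and 6 cells for Gestation, 3 and 4 for Lactation). Pooled, milk UMIs per 10000 of Lactation over Gestation gave a log2 ratio of -5.60 in the earlier pool and 3.78 in the later pool, so the libraries took opposite signs. With the gate lowered to 2 UMIs (52 and 30 cells for Gestation, 42 and 14 for Lactation), 0.0% of 3183 genes and none of the 9 passed edgeR's quasi-likelihood test, with 37 genes at an unadjusted p under 0.05 and none called by DESeq2. Without earlier Gestation in that lower gate, Csn1s2b, Lalba and Csn3 passed (3 of 9), higher in Lactation, beside 100 of all 4569 genes tested. The single Gestation sample of that fit is assumed to vary like the 2 Lactation samples.

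The genes whose pattern in the earlier pool was most like that of the 9 were sought by a ratio. It set a gene's share of UMIs in shallow barcodes over its share in all analysed cells. Genes with at least 200 UMIs in the former and 50 in the latter were used, 678 in all. The analysed cells here include unnamed clusters and epithelial-like cells outside the gate, so their milk UMIs enter the denominator. The milk genes had ratios from 17.0 (Csn2, the fifth highest) over 16.01 (Csn1s2b) and 13.8 (Wfdc18) down to 7.38 (Wap, rank 19). The other 10 highest genes were Gm37144 (28.1), Pigr (24.3), Mir6240 (22.8), Muc15 (18.3), Fabp3 (13.7), Lao1 (12.4), Sec61a1 (11.9), Acta2 (9.92), Spp1 (7.65) and Trf (7.57). Together with the 9 milk genes they filled the first 19 ranks. Pigr (the receptor that carries IgA into milk), Muc15, Fabp3 (fatty acid binding), Spp1 and Trf stood on the list of other milk and secretory genes, and Acta2 on the basal list.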

How the data were processed

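Mammary gland cells sorted for CD45 were captured with 10x Genomics 3′ v3.1 chemistry as 2 pooled gene expression libraries with hash tag libraries, per the labels' protocols. The authors deposited raw UMI counts per gene and barcode. Cell Ranger 6.1.0 and mm10 are named, without a role, per the submitters' processing notes, while the earlier matrix names an older Cell Ranger release, per the file headers. The tag counts were deposited as matrices too. The earlier matrix is unfiltered and the later one held only barcodes with 500 UMIs or more, so shallow barcodes exist for 1 library.

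Counts were used as deposited. Genes were matched by symbols that occur once in each matrix (55253), and 234 entries with repeated or unshared symbols were left out. Cells needed at least 500 UMIs, 300 genes and at most 10% mitochondrial UMIs. Tags with at least 100 counts were assigned to cells with HTODemux (Seurat 5.3.0, R 4.3.3, quantile 0.99), and groups are the tag names of the deposited sheets. Cells were clustered per library in scanpy 1.11.5 (2000 variable genes, 30 components, 15 neighbours, Leiden resolution 1.0) without the 9 genes. Classes were named from marker lists with at least 3 detected markers, and the score thresholds were set after the clusters were seen. Scrublet (expected rate 0.08) called 7.83% and 6.87% of cells, and these calls and doublet clusters were left out of the immune classes but kept in the epithelial gate. The Lactation tag of the later pool had a median of 6 tag counts per cell, beside 13 to 65 for the other tags of that pool.

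UMIs were summed per hash-defined sample and class and tested with edgeR 4.0.16 (quasi-likelihood test, TMM scaling, filterByExpr, Benjamini-Hochberg adjustment over all genes tested), with DESeq2 1.42.0 as an alternative. Lactation minus Gestation had the library as a block, and comparisons of cell classes had the sample as a block, since both classes come from the same sample. Macrophage-like and T-like cells were compared per cell, with the number of cells as the scale in place of TMM. Classes needed 20 cells and gated epithelial cells 10 in each sample. The scripts were tested on simulated counts. Positions and promoter windows come from RefSeq tables of GRCm38.p6, the patch release of the same build.

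All 9 genes are described. Other genes are named if they rank among the 10 whose enrichment in shallow barcodes is highest, or if they stand on one of the lists and pass a test, at most 5 per list by p, besides Jak2, Socs1, Wfdc17, Cd7, Gzmc and Itgae, which were chosen after their values were seen. The genes, lists and comparisons were chosen with earlier results of these data known.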

Additional observations from a re-analysis of the deposited data

Results flagged for a closer look

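Of 52 sets of 4 to 10 samples examined for a value far from the others, 3 had one, and chance gives about 1 in 20. In the earlier pool ILC2-like cells tagged Gestation held 606 milk UMIs per 100 cells beside 181 in the next sample. In the later pool NK-like cells tagged Lactation held 658 beside 389, and B-like cells tagged Lactation held 684 beside 392. Without cells over 10 milk UMIs (chosen after seeing the data, and lowering a mean by construction) they were 191, 347 and 271.

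Lactation over Gestation took opposite signs in the libraries in several cell classes, and the difference between libraries was not tested. The log2 ratio of milk UMIs was -5.60 in the earlier and 3.78 in the later pool in gated epithelial cells, per 10000 UMIs. Per cell it was -0.0870 and 0.0174 in T-like cells, -0.22 and 0.80 in B-like cells, -0.42 and 0.26 in macrophage-like cells, and -0.72 and 0.51 in dendritic cells.

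Signal also lay outside the cells compared. Outside the epithelial gate, 3 cells of the earlier pool and 12 of the later pool held 1000 milk UMIs or more. Gated cells with no single tag held 49742 milk UMIs in the earlier pool and 238711 in the later one.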

How the results depend on the processing

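In no alternative did a milk gene pass in the T-like, NK-like, B-like, macrophage-like, monocyte-like or dendritic comparison of Lactation with Gestation (9 to 12 alternatives each). Without the replicate block (pool or sample), 0 of 9 passed in T-like cells and 9 of 9 in epithelial against T-like cells, where 9 also passed in each of the 8 alternatives. The labels give the tags no replicate numbers, so replicate 1 is the earlier and replicate 2 the later pool. In T-like cells Csn2 changed sign without Lactation replicate 1 (0.22) and within the later pool alone (0.22), and Wap without Gestation replicate 1 (0.22) and within the later pool (0.28). The cause was not tested.

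Counts over all genes moved more. In T-like cells 9 genes passed, and 24 with library size alone (6 of them higher), 86 with no filter, 35 without cells that had a gate gene UMI, 34 with T cells chosen by marker UMIs, 75 with the top tag in place of HTODemux, 2 with doublet calls kept, 0 with no block and 0 to 2 with a replicate left out. Over their alternatives the counts were 0 to 16 in NK-like (1 in the report), 0 to 10 in B-like (0), 0 to 37 in macrophage-like (5), 0 to 31 in monocyte-like (3) and 0 to 39 in dendritic cells (17). For epithelial against T-like cells 2270 passed, 1152 of them higher, and 725 without Regression, 1277 without Gestation, 5055 with a gate of 2, 3141 with library size alone (817 higher) and 1535 by DESeq2 (1036 higher), as the median log2 of all genes moved from -0.22 to -0.80 and 0.80. In the macrophage-like comparison 7867 passed, and 4325 with no block.

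Per UMI, 3 milk genes passed between macrophage-like and T-like cells and Csn2 was -0.23. T cells chosen by marker UMIs held 222 and 367 milk UMIs per 100 cells. The share of milk UMIs was 2.55% in barcodes with 20 to 49 UMIs and 0.469% in those with 1 to 9. A gate of 8 gave a median of 5.14% milk UMIs per epithelial cell in the earlier pool. The epithelial log2 ratio was -7.10 and 4.28 with a gate of 2, and 3.35 in the later pool with a gate of 8. With a gate of 2, milk genes past the threshold numbered 0 to 3 when a replicate was left out, 3 being without Gestation replicate 1, and genes overall 41 with no filter and 100 without Gestation replicate 1. The within-pool values, the macrophage-like comparison and the removal of cells over 10 milk UMIs were chosen after seeing the data. The epithelial test at a gate of 4 or 8 was not run for want of cells. Depth limited which genes could be tested, as in Lactation against Gestation Lalba was too rare in the 5 other immune classes and Csn3 in monocyte-like cells.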
